A study of Mus musculus with 4 samples.

Results

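The cytosolic ribosomal protein genes code for the proteins of the large (Rpl, Rplp) and small (Rps, Rpsa) subunits of the ribosome. They were taken by symbol: every gene named Rpl or Rps followed by a digit, with Rpsa, Rplp0, Rplp1 and Rplp2, leaving out names with -ps and the Rps6k kinases. The rule found 85 genes among the 28889 listed in the 3 libraries with a count matrix, and all 85 stand in the gene list of each library. By name the rule also takes in Rps19bp1, which encodes a protein that binds Rps19 and is not a ribosomal protein itself, and the rarely used paralogues Rpl3l and Rpl39l. Fau and Rack1, whose products are ribosomal as well, fall outside it and were read with the related genes.

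The samples were liver tumours of male C57BL/6 mice, 18 weeks old, taken 10 weeks after hydrodynamic tail vein injection and read by single-cell RNA sequencing. All mice received the plasmid pT3-EF1α-c-MYC, a second one for AKT (pT3-EF1α-AKT), and SB100X, the Sleeping Beauty transposase that puts the pT3 cassettes into the genome of cells that take them up. The vector mice also received pT3 empty vector, and the KLF2 mice pT3-EF1α-KLF2, so c-MYC and AKT are shared by both groups and every transgene is driven by the general EF1α promoter, not by one of a cell type. Each library is from its own mouse: vector replicate 2, KLF2 replicate 1 and KLF2 replicate 2 were analysed, and the counts of vector replicate 1 were not used here. The vector group is therefore 1 library.

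Ribosomal protein mRNAs are among the most abundant of a cell, and many begin with a C followed by a run of pyrimidines, the 5′ terminal oligopyrimidine (TOP) motif. Through this motif their translation follows mTORC1, a kinase downstream of AKT, while MYC raises the transcription of ribosome genes. A few ribosomal proteins have a paralogue that can take the same place in the ribosome, and these pairs are known to be used differently between tissues.

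The sequences below show that motif at annotated starts, since the genes are counted together. Of the 85 genes, 65 had an entry among the RefSeq promoters of GRCm38.p6. A C at the annotated start that opens a run of at least 5 pyrimidines (C or T, read on the gene's strand) was found in 14 of these 65 (21.5%), against 2.96% of 26960 other genes. Allowing the run to begin within 5 bases of the start, 46.2% of the ribosomal protein genes and 21.1% of the others had one. Annotated starts can lie some bases from the true one, so a missing run says nothing about the mRNA. The 30-base windows have the run in capitals, beginning at the annotated start.
Rpl15: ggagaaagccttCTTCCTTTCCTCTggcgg (chr14:18270969-18270998, - strand)
Rpl35: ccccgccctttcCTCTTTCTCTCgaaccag (chr2:39005114-39005143, - strand)
Rps10: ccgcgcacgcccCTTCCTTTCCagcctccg (chr17:27635227-27635256, - strand)
Rps18: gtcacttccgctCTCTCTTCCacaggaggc (chr17:33955648-33955677, - strand)
Rps6: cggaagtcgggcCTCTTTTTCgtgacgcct (chr4:86857350-86857379, - strand)
Rpl38: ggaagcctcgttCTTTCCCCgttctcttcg (chr11:114668568-114668597, + strand)
Rps27: tccgctttcgctCCTTTCCggcggtgacga (chr3:90213631-90213660, - strand)

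The coding sequences of the best measured paralogue pair follow, because the results on paralogue use turn on telling these mRNAs apart. Both are 255 bases, from GENCODE M21 on GRCm38, and 194 of 255 bases (76.1%) are identical. Rps27 lies at chr3:90212522-90213651 (minus strand) and Rps27l at chr9:66946086-66949516 (plus strand), and capitals mark where Rps27l differs from Rps27.
Rps27: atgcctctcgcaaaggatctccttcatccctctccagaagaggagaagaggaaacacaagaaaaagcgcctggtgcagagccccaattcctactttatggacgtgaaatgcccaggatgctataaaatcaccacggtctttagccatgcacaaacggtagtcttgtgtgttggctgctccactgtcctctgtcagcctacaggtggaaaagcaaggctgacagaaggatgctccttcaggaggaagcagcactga
Rps27l: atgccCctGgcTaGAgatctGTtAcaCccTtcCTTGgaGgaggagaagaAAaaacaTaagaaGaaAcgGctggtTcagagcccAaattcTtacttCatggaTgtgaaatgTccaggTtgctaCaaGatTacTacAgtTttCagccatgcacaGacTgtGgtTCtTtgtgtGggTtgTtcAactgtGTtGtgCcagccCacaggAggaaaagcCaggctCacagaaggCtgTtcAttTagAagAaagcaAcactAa
The second pair, Rpl22 (chr4:152325742-152334071, plus strand) and Rpl22l1 (chr3:28805436-28807424, plus strand), is 70.2% identical over 369 aligned coding bases. No 50-base stretch of the Rps27l or Rpl22l1 mRNA occurs in that of its partner. Rps27rt is a different case: its coding sequence equals that of Rps27 in 255 of 255 bases, and 89.8% of its 50-base stretches are shared, so the split of UMIs between Rps27 and Rps27rt is uncertain.

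A UMI (unique molecular identifier) marks 1 captured RNA molecule. The kept cells numbered 8403 in vector replicate 2, 6209 in KLF2 replicate 1 and 11103 in KLF2 replicate 2, with 3191, 8912 and 5854 UMIs per cell at the median. The vector library stood apart: mitochondrial UMIs were 10.4% there and 0.575% and 0.784% in the KLF2 libraries, UMIs of genes that collect ribosomal RNA were 28.7%, 15.7% and 21.0%, and its barcodes reached down to 522 UMIs against 1000. Between 550 and 1146 barcode names were shared by a pair of libraries. Cells were clustered without the ribosomal protein genes and named from markers, and 7 classes had at least 50 cells in every library. The class called the low-Ptprc compartment joins hepatocyte-lineage-like, cholangiocyte-like and unnamed clusters that lack the leukocyte gene Ptprc. Its make-up differed: the hepatocyte-lineage-like cluster held 655 of 658 cells in vector replicate 2 and only 20 of 5210 and 55 of 8351 in the KLF2 libraries. Alb, the albumin gene, had 562, 4.32 and 10.1 CPM (UMI counts of a class in a library, scaled to one fixed total). The targeted gene Klf2 read 155 CPM without the KLF2 plasmid, against 326 and 380 CPM with it. Counts under the symbols of the shared drivers also differed. Myc read 45.9 CPM in vector replicate 2 and 685 and 478 CPM in the KLF2 libraries, and Akt1 268, 1273 and 735 CPM. Whether the UMIs of Klf2, Myc and Akt1 came from the plasmids or from the cells' own genes was not tested. The part of these genes in the values below was not tested either.

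By the mean over libraries, the lymphocyte classes had the largest share of UMIs from ribosomal protein genes among the 7 classes, and neutrophil-like cells the smallest. In KLF2 replicate 2 the low-Ptprc compartment lay above both lymphocyte classes. In the B/plasma-like class the share of UMIs was 19.8% in vector replicate 2, 28.6% in KLF2 replicate 1 and 22.8% in KLF2 replicate 2, a mean of 23.7% ± 4.44 (SD, n = 3). The T/NK-like class lay close to it at 19.2%, 28.0% and 22.9% (mean 23.4% ± 4.41). In neutrophil-like cells the share was 7.21%, 12.1% and 12.95% (mean 10.7% ± 3.09), the lowest of the 7 classes in vector replicate 2 and KLF2 replicate 1. The unnamed cluster 11, with Ptprc, held 1069 cells in vector replicate 2 but 3 and 26 in the KLF2 libraries, so it entered no class. Its share in vector replicate 2 was 6.08%, below that of neutrophil-like cells. Without mitochondrial and rRNA-related genes it was 19.1% there, against 13.3% in neutrophil-like cells.

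The endothelial-like class was at 12.2%, 13.4% and 12.7% (mean 12.8% ± 0.622) and the mesenchymal-like class at 13.8%, 14.1% and 13.6% (mean 13.8% ± 0.246). Both had little spread between mice over all UMIs, and more without mitochondrial and rRNA-related genes (SD 1.43 and 2.59). The myeloid-like class was at 18.4%, 15.6% and 15.5% (mean 16.5% ± 1.62). The low-Ptprc compartment had the widest spread, with 13.7%, 24.95% and 23.2% (mean 20.6% ± 6.07). Neighbours in this order overlapped across the libraries in 4 cases: the B/plasma-like and T/NK-like classes, T/NK-like and the compartment, the compartment and myeloid-like, and endothelial-like and neutrophil-like.

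An exact permutation test (two-sided, 343 arrangements of the class labels within libraries, adjusted over the 7 classes) gave a difference from the other classes for neutrophil-like cells, -7.73 percentage points (adjusted p = 0.041, lower in 3 of 3 libraries). By the same exact test B/plasma-like cells stood 7.41 points higher (p = 0.0175, adjusted p = 0.0612) and T/NK-like cells 7.0 points higher (p = 0.0525, adjusted p = 0.122), each in 3 of 3 libraries, and did not pass the adjustment. Endothelial-like cells were at -5.37 points (exact adjusted p = 0.235), and at -7.31 points with an adjusted p of 0.0284 when only cells with at most 10% mitochondrial UMIs were used, where the neutrophil-like class was too small to enter. The neutrophil result was lost when clusters were made with the ribosomal protein genes (exact adjusted p = 0.0816) or at Leiden resolution 0.5 (exact adjusted p = 0.051).

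**Figure D1:**
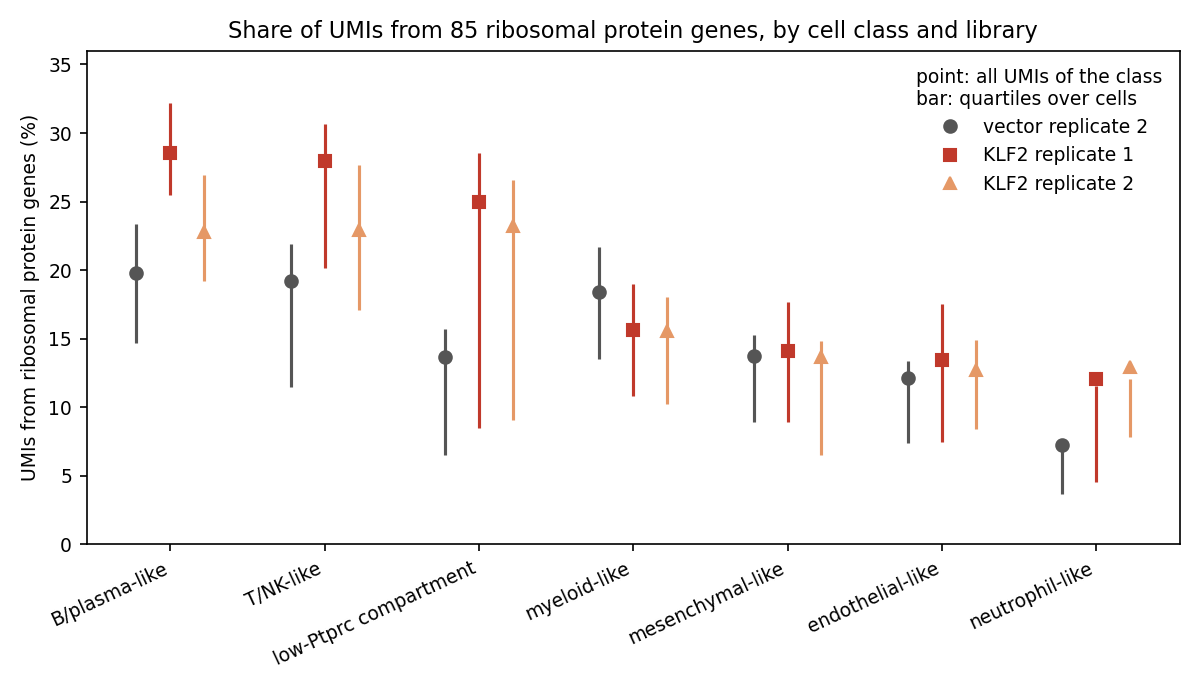
Percent of UMIs from the 85 ribosomal protein genes (vertical axis) in 7 cell classes (horizontal axis), with a point for all UMIs of the class in each of the 3 libraries and a bar from the lower to the upper quartile over its cells. The B/plasma-like and T/NK-like points lie between 19.2% and 28.6%, and the neutrophil-like points between 7.21% and 12.95%.

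Leaving mitochondrial and rRNA-related genes out of the total brought the libraries closer in the B/plasma-like, T/NK-like, neutrophil-like and compartment cells, and spread them further in the myeloid-like, endothelial-like and mesenchymal-like ones. The share was then 31.9% ± 1.88 in B/plasma-like, 31.2% ± 1.72 in T/NK-like, 28.5% ± 1.68 in compartment, 22.2% ± 3.35 in myeloid-like, 19.3% ± 2.59 in mesenchymal-like, 18.8% ± 1.43 in endothelial-like and 15.1% ± 2.36 in neutrophil-like cells (SD, n = 3). The order of the 7 classes was the same under both totals. The share differed with depth inside a class, in both directions: the median was higher in the deeper than in the shallower cells in 14 of 21 sums and lower in 7. In the compartment of KLF2 replicate 1 the median was 10.5% in the shallower cells and 26.6% in the deeper ones, and in KLF2 replicate 2 it was 12.02% and 24.04%. In neutrophil-like cells of KLF2 replicate 1 it was 8.15% and 5.61%, and in B/plasma-like cells of KLF2 replicate 2 25.1% and 21.7%. The part of depth in the differences between classes was not tested.

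Within the compartment the share differed widely between clusters, in a similar order in both KLF2 libraries. Cluster 0, led by Car3 and Fxyd6, had 29.3% and 28.8% of its UMIs from ribosomal protein genes. Cluster 18, led by the cell-cycle genes Ube2c and Top2a, had 27.2% and 25.5%, and cluster 13, led by Ldhb and Igfbp2, 25.4% and 26.1%. The cholangiocyte-like cluster 5, which expressed the biliary keratins Krt7 and Krt19, stood at 22.9% and 22.8%.

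Among the lowest clusters were 3 rich in the nuclear RNA Malat1. Cluster 2, led by Gm26917 and Malat1, had 7.88% and 10.7%, and cluster 20, with Malat1 at 25286 CPM, 4.54% and 6.34%. Cluster 7, led by the neural adhesion gene Cntn4 and with Malat1 at 13279 CPM, had 14.3% and 16.6%. Cluster 0 had Malat1 at 1595 CPM. The hepatocyte-lineage-like cluster 14 was low as well, 13.7% in vector replicate 2 and 15.2% in KLF2 replicate 2, with Malat1 at only 2010 CPM. Whether these low shares come from the cells or from their nuclear RNA was not tested.

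**Figure D2:**
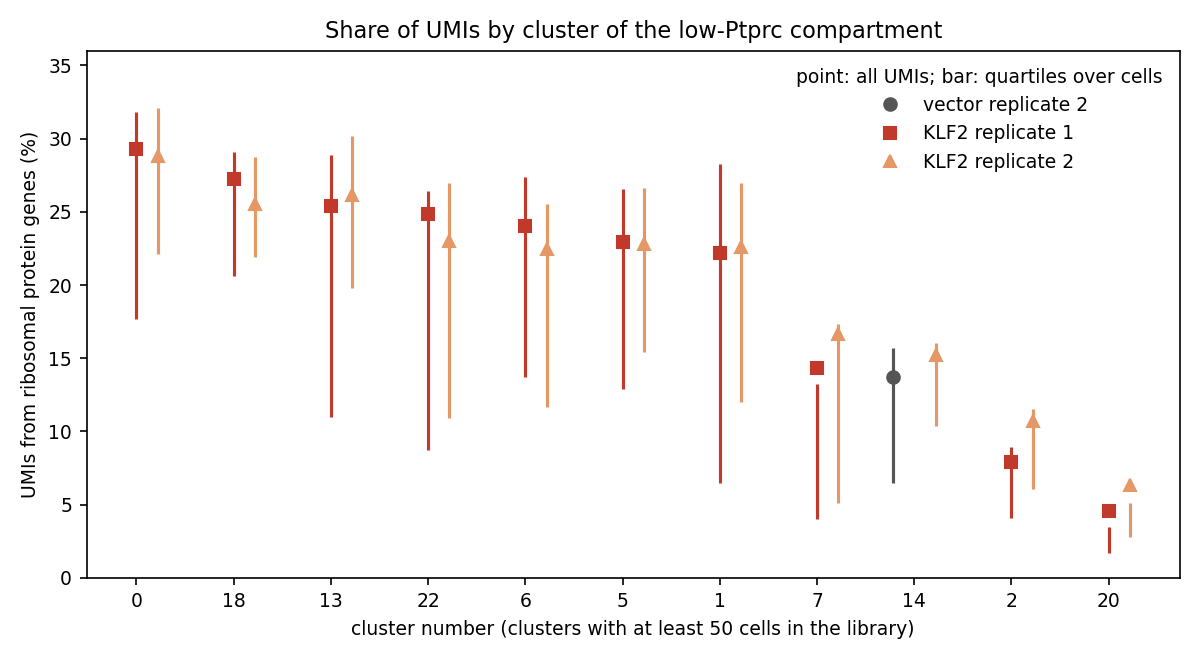
Percent of UMIs from ribosomal protein genes (vertical axis) in the clusters of the low-Ptprc compartment with at least 50 cells in a library (horizontal axis, cluster numbers), as a point for all UMIs and a bar between the quartiles over cells. Both KLF2 libraries run from about the same top, 29.3% and 28.8% in cluster 0, to 4.54% and 6.34% in cluster 20; vector replicate 2 has a value only in cluster 14, hepatocyte-lineage-like.

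The make-up of the myeloid-like class differed between libraries. Cluster 12, led by the antigen-presentation genes H2-Ab1 and Cd74, held 96.1% of the vector myeloid-like cells but 17.2% and 15.8% of those in the KLF2 libraries. Inside that cluster the share was 18.5% in vector replicate 2, and higher, 22.9% and 20.5%, in KLF2 replicates 1 and 2. Cluster 9, led by Mmp12 and the complement genes C1qa and C1qc, was at 14.9% and 15.6% in the KLF2 libraries, and cluster 19, led by Saa3 and Arg1, at 14.6% and 11.2%. The class as a whole was lower in both KLF2 libraries, while its one cluster with at least 50 cells in each library was higher in both; the part of the make-up in the class value was not tested.

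Gene by gene, 83 of the 85 passed the filter on low counts; Rpl3l and Rpl39l did not. Each class was set against the mean of the other 6 with edgeR's quasi-likelihood test on the 21 sums of UMIs, with a term for the library (Benjamini-Hochberg adjusted p under 0.05 over 12225 genes). In T/NK-like cells 55 ribosomal protein genes were higher and 0 lower, where 13% of all genes tested were higher and 10.4% lower. The counts were 49 higher and 0 lower in B/plasma-like cells (all genes 7.26% and 3.84%), 0 and 72 in neutrophil-like cells (7.57% and 3.62%), 0 and 45 in endothelial-like cells (16.5% and 8.91%), and 0 and 14 in mesenchymal-like cells (16.5% and 7.23%). Only 4 were higher and 0 lower in myeloid-like cells (13.9% and 5.91%), and 12 and 0 in the compartment (15.1% and 13.4%).

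The median log2 difference over the ribosomal protein genes was 0.59 in B/plasma-like, 0.56 in T/NK-like, 0.33 in compartment and 0.18 in myeloid-like cells, and -0.36 in mesenchymal-like, -0.53 in endothelial-like and -0.78 in neutrophil-like cells. These counts rest on which mice enter. Without vector replicate 2 they were 77 higher and 1 lower for T/NK-like, 76 and 0 for B/plasma-like, 0 and 79 for endothelial-like, 0 and 75 for mesenchymal-like and 39 and 1 for the compartment. Without KLF2 replicate 1 they fell to 5 and 0, 2 and 0, 0 and 0, 0 and 0, and 2 and 0, and neutrophil-like cells, with 65 lower without the vector library, then had 1 higher and 0 lower. Without KLF2 replicate 2 these 5 classes gave the same numbers, and neutrophil-like cells 1 higher and 11 lower. Myeloid-like cells had 2 higher without the vector library and 0 without either KLF2 library. Of all genes tested without vector replicate 2, 12.9% were higher in T/NK-like, 7.12% in B/plasma-like, 18.2% in myeloid-like and 18.6% in compartment cells. Lower were 11.8% in endothelial-like, 10.9% in mesenchymal-like and 2.78% in neutrophil-like cells. Fewer of all genes passed without a KLF2 library. Without KLF2 replicate 2, 4.29% were higher in T/NK-like and 2.65% in B/plasma-like cells, and 0.878% lower in neutrophil-like cells. Without KLF2 replicate 1, 6.19% were higher in T/NK-like and 2.22% in B/plasma-like cells, beside 5.95% and 2.38% of the ribosomal protein genes. There 0.202% were lower in neutrophil-like cells. The medians over the ribosomal protein genes were then 0.46, 0.43 and -0.90 in these 3 classes. Without vector replicate 2 the median was -0.58 in mesenchymal-like and -0.0022 in myeloid-like cells. Of all genes tested without KLF2 replicate 1 and without KLF2 replicate 2, 7.88% and 6.17% were higher in the compartment. Of the ribosomal protein genes 2.38% were higher there in both settings. In myeloid-like cells 7.27% and 6.75% of all genes were higher. Lower were 2.29% and 1.45% in endothelial-like and 1.28% and 1.18% in mesenchymal-like cells.

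Rps27, a protein of the small subunit, had the largest difference in B/plasma-like cells and the next after Rps15a in T/NK-like cells. Its level was 6698 CPM in vector replicate 2, 8063 in KLF2 replicate 1 and 6821 in KLF2 replicate 2 in B/plasma-like cells, a log2 difference of 1.43 (SE 0.136, edgeR adjusted p = 1.33e-06). In T/NK-like cells it was 4904, 5866 and 5579 CPM (log2 difference 0.97, SE 0.14, adjusted p = 9.53e-05). Mesenchymal-like cells had 2389, 1773 and 2097 CPM (log2 difference -0.76, SE 0.161, adjusted p = 0.00189), so every lymphocyte library lay above every mesenchymal one. Rps15a (log2 difference 1.07, adjusted p = 6.51e-05) and Rps13 (0.91, adjusted p = 0.000235), also of the small subunit, were the other leading genes of T/NK-like cells. Those of B/plasma-like cells were Rps24 (0.98, adjusted p = 0.000546) and Rps27rt (1.12, adjusted p = 6.45e-05). Because the split of UMIs between Rps27 and Rps27rt is uncertain, values of Rps27rt here and below cannot be read apart from Rps27.

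In neutrophil-like cells Rps24 (-1.02, adjusted p = 0.00143), Rpl39 (-1.0, adjusted p = 0.00398) and Rpl36a (-0.99, adjusted p = 0.00517) were lowest. In endothelial-like cells Rps26 (-0.77, adjusted p = 0.00843) and Rpl18 (-0.76, adjusted p = 0.00556) were lowest beside Rps27rt, and in mesenchymal-like cells Rps9 (-0.62, adjusted p = 0.00758) followed Rps27. The 4 genes higher in myeloid-like cells included Rpl10 (0.69, adjusted p = 0.0151), Rps29 (0.62, adjusted p = 0.00983) and Rps25 (0.50, adjusted p = 0.0468). Rpl15, Rpl7l1 and Rps19bp1 passed in no class.

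The compartment was led by different genes. Rps27l (log2 difference 0.96, SE 0.25, edgeR adjusted p = 0.00927) and Rpl22l1 (0.95, SE 0.169, adjusted p = 0.000838), both paralogues, were highest, followed by Rplp0 (0.63, SE 0.199, adjusted p = 0.0247), a protein of the ribosomal stalk. The partners of these paralogues, Rps27 (-0.37, adjusted p = 0.0846) and Rpl22 (0.19, adjusted p = 0.362), did not pass there. Rplp0 differed between the libraries of the compartment, with 952 CPM in vector replicate 2 and 3882 and 2346 CPM in KLF2 replicates 1 and 2.

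**Figure D3:**
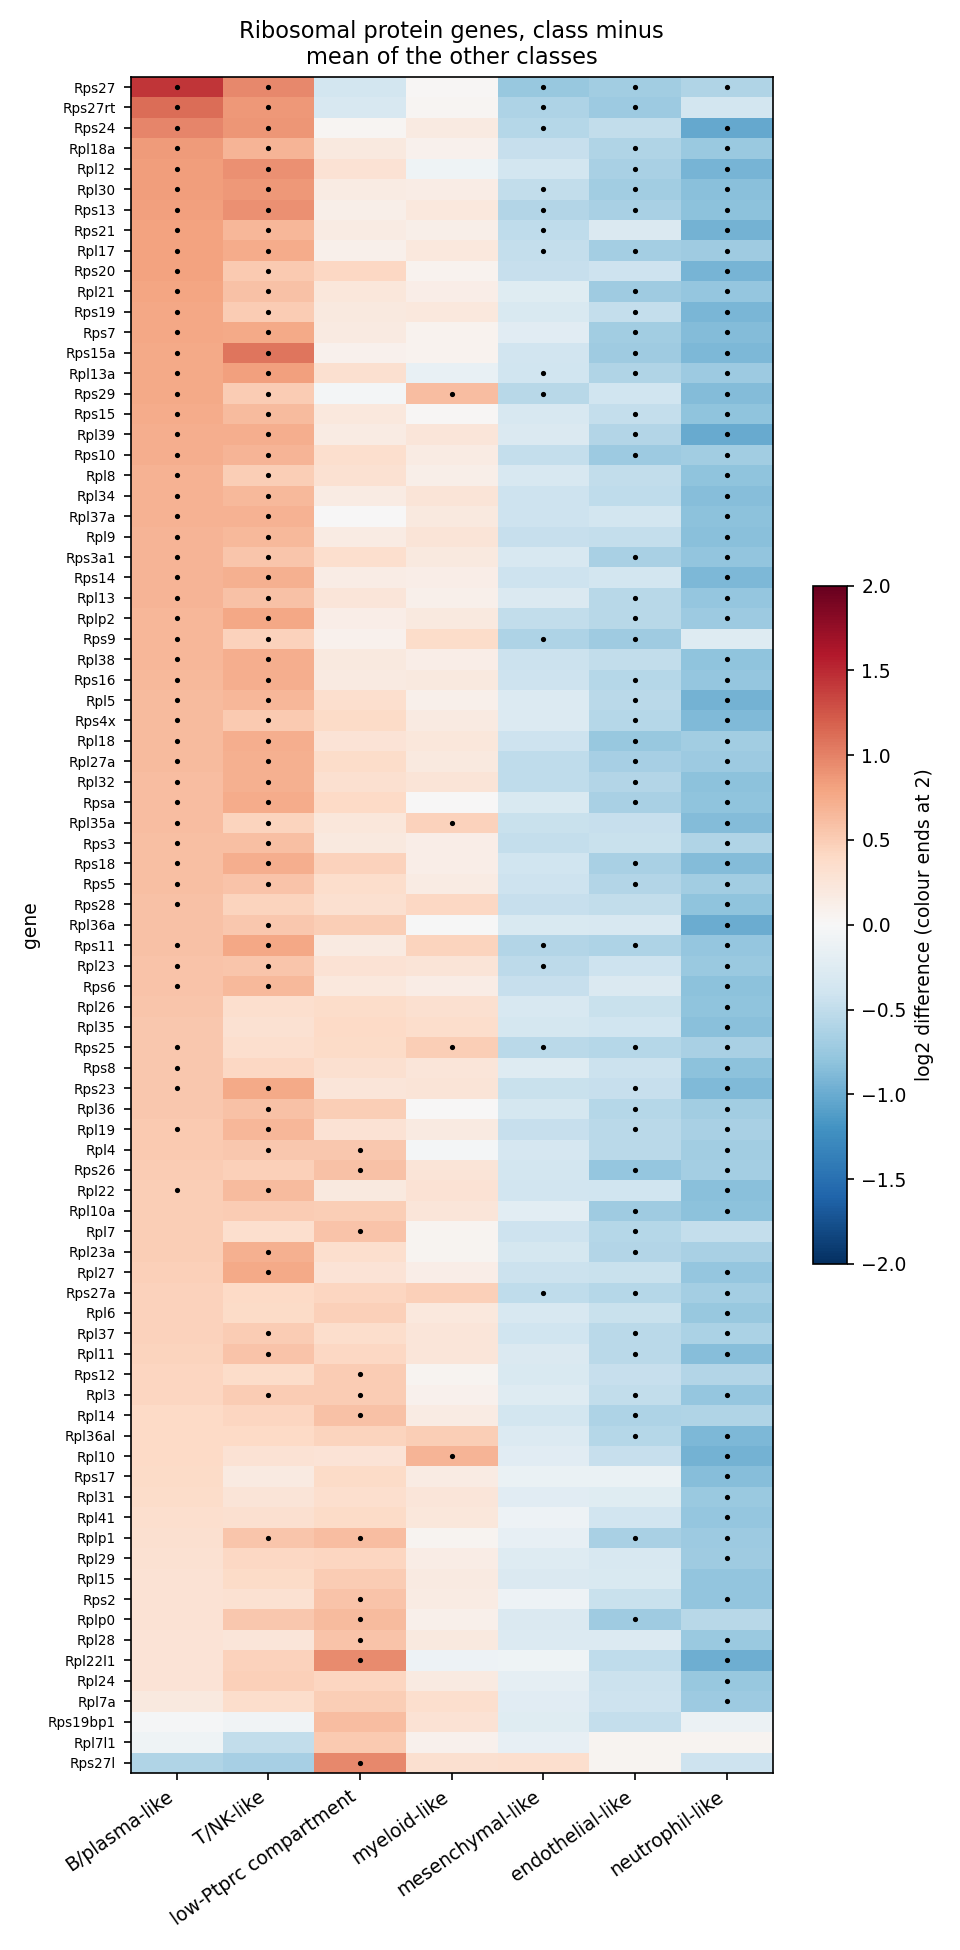
Log2 difference of each of the 83 tested genes (rows) between a class and the mean of the other 6 (columns), from red (higher) to blue (lower), with a dot where the edgeR adjusted p is under 0.05. The B/plasma-like and T/NK-like columns are mostly red and the endothelial-like and neutrophil-like columns mostly blue, while Rps27l in the bottom row has the opposite pattern to Rps27 in the top row, with its only dot in the compartment.

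The Rps27 pair separated lymphocytes from the other classes. Rps27l, known as a target of p53, made up 3.24%, 3.29% and 3.61% of the pair's UMIs in T/NK-like cells (vector replicate 2, KLF2 replicate 1, KLF2 replicate 2) and 2.20%, 2.15% and 3.83% in B/plasma-like cells. It made up 8.96%, 9.81% and 10.98% in myeloid-like cells, 12.3%, 13.6% and 11.5% in endothelial-like cells and 12.2%, 16.5% and 17.1% in mesenchymal-like cells. In the compartment it was 23.8%, 13.9% and 11.6%. Every one of the 6 lymphocyte values lay below every value of these 4 classes. Neutrophil-like cells had 3.98% in vector replicate 2, from 13 of 327 UMIs (95% exact binomial interval 2.13% to 6.70%), and 10.5% and 12.6% in the KLF2 libraries. Intervals of this kind cover counting error only.

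By CPM both genes stood apart between lymphocytes and these classes, in opposite directions, though for Rps27l the ranges nearly met. Rps27l was at 151 to 272 CPM in the 6 lymphocyte values and at 275 to 554 CPM in the 12 values of the myeloid-like, endothelial-like, mesenchymal-like and compartment cells. Its log2 difference was -0.66 in T/NK-like (edgeR adjusted p = 0.102) and -0.60 in B/plasma-like cells (adjusted p = 0.202), neither past the threshold, whereas that of Rps27 passed in both. Inside the compartment, hepatocyte-lineage-like cells had the highest shares, 23.9% in vector replicate 2 and 18.9% in KLF2 replicate 2 (KLF2 replicate 1 had 16 of 80 UMIs). The next were cluster 13, with 18.6% and 16.4% in the KLF2 libraries, and the cycling cluster 18, with 17.3% and 13.9%, while cluster 0 had 12.2% and 9.99%.

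Rpl22l1 was used most in the compartment. It gave 24.97%, 31.3% and 27.2% of the UMIs of Rpl22 and Rpl22l1 there, above each library's value in the other 6 classes. Mesenchymal-like cells followed with 20.9%, 22.6% and 24.2%, then endothelial-like cells with 16.3%, 19.8% and 20.05%. T/NK-like cells had 18.2%, 20% and 16.7%, B/plasma-like cells 16.2%, 17.4% and 19.7%, and myeloid-like cells 12.7%, 18.1% and 18.7%, and these overlapped. Neutrophil-like cells ranged from 11.3%, on 12 of 106 UMIs, in the vector library to 20.1% and 21.96% in the KLF2 ones. The cycling cluster 18 had the highest values, 34.4% and 32.0% in KLF2 replicates 1 and 2, beside 34.1% and 29.3% in cluster 0 and 21.0% and 22.1% in the Malat1-rich cluster 2.

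Rpl36al, the paralogue of Rpl36a, gave 41.7%, 34.6% and 31.4% of its pair's UMIs in myeloid-like cells, above T/NK-like cells (31.3%, 23.8% and 26.9%) and endothelial-like cells (31.0%, 22.8% and 24.9%) in each library. Rpl7l1, a relative of Rpl7 with 59.9% identical coding bases, stayed low, from 1.66% in T/NK-like and B/plasma-like cells of KLF2 replicate 1 to 7.56% in the vector compartment. Rps27rt was read at 6.67% to 8.19% of its pair in vector replicate 2 and at 2.55% to 4.61% in the KLF2 libraries, in every class higher in the vector library, on counts that cannot be told apart from Rps27. Rpl3l, the muscle form of Rpl3, reached at most 0.216% outside neutrophil-like cells, where it had 4 of 65, 7 of 169 and 3 of 399 UMIs. Rpl39l, known from the testis, made up at most 0.264% of its pair in any class and library, on 6 UMIs.

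**Figure D4:**
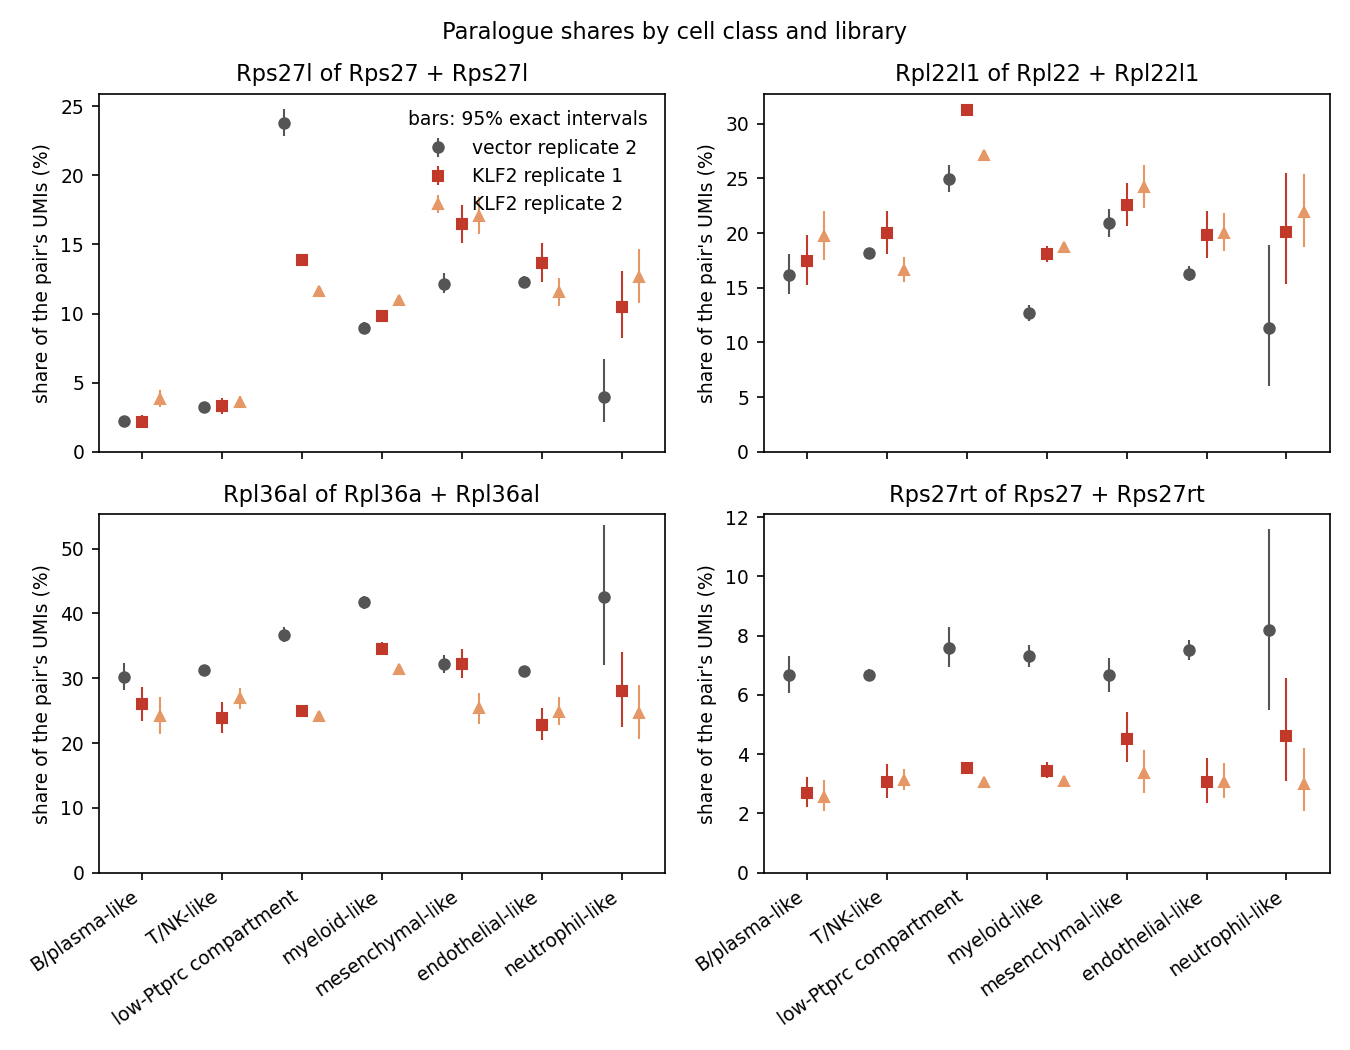
Share of a pair's UMIs from the paralogue (vertical axes, percent) in 7 classes (horizontal axes) for Rps27l, Rpl22l1, Rpl36al and Rps27rt, with a point for each library and its 95% exact binomial interval. Rps27l lies between 2.15% and 3.83% in the lymphocyte classes, Rpl22l1 is highest in the compartment, and Rps27rt follows the library more than the class.

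Relative to each other, the ribosomal protein genes varied by a median coefficient of variation of 15.4% over the 21 sums, and 20 of 77 genes differed more than 2-fold between their highest and lowest share of all ribosomal protein UMIs. Over these sums, and among genes with a mean of at least 0.5% of all ribosomal protein UMIs, Rpl13 varied least (1.38% to 1.62%, coefficient of variation 5.28%), followed by Rps23, Rpl8, Rpl34 and Rpl26 (up to 8.44%). Rps10 varied most, from 0.285% to 1.45% (70.1%), ahead of Rpl36 (38.9%), Rps27 (33.1%), Rpl37a (30.8%) and Rpl15 (30.0%). Rps10, Rpl36 and Rpl37a had a larger share in vector replicate 2 than in both KLF2 libraries in all 7 classes, Rpl15 a smaller one in all 7, and Rps27 a larger one in 5. Rps10 made up 1.32% of ribosomal protein UMIs in vector replicate 2 on average and 0.366% and 0.335% in the KLF2 libraries, while Rpl15 made up 0.511%, 0.952% and 0.956%.

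In all 7 classes 17 of the 85 genes had a larger share in vector replicate 2 than in both KLF2 libraries, and 23 a smaller one. The shorter genes tended to be on the vector side: across 77 genes, which share the same libraries and are not independent replicates, Spearman's rho between coding length and the log2 ratio of vector to KLF2 share lay from -0.72 in the compartment to -0.44 in B/plasma-like cells. The KLF2 libraries differed from each other along length too, with rho from -0.09 in neutrophil-like to 0.73 in T/NK-like cells. Large-subunit genes gave 54.5% to 59.1% of the ribosomal protein UMIs in the vector classes and 53.0% to 56.1% in the KLF2 ones.

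Between KLF2 and vector tumours, few ribosomal protein genes passed the test. In the reported fit most of those that did were lower in the KLF2 libraries, and this balance moved with the processing. Over all cells the ribosomal protein genes gave 15.4% of UMIs in vector replicate 2 and 24.0% and 22.2% in the KLF2 libraries. Without mitochondrial and rRNA-related genes they gave 25.3%, 28.7% and 28.4%. With 1 vector library the edgeR quasi-likelihood test rests on the spread between the 2 KLF2 libraries, and no permutation of 3 libraries could reach the threshold. In myeloid-like cells 0 were higher and 12 lower (12.1% and 7.17% of all genes tested), in endothelial-like cells 0 and 13 (14.7% and 14.1%), in mesenchymal-like cells 0 and 13 (11.2% and 9.17%) and in the compartment 0 and 5 (13.9% and 11%). T/NK-like cells had 1 higher and 2 lower (11.7% and 9.45%) and neutrophil-like cells 2 and 2 (4.47% and 3.88%). In B/plasma-like cells edgeR called none in either direction (0% and 0% of all 6724 genes), with 4 ribosomal protein genes at an unadjusted p under 0.05 and 1 lower by DESeq2. The 0% of all genes in B/plasma-like cells held only in the reported fit and with scaling without the ribosomal protein genes. Every other setting called genes there in both directions, so it does not show these cells to be unchanged. All but the myeloid-like and mesenchymal-like shares of lower genes lay near or below the share of all genes.

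The median log2 difference over the tested members was -0.50 in myeloid-like (all genes 0.15), -0.55 in mesenchymal-like (0.05), -0.23 in endothelial-like (0.02), 0.23 in T/NK-like (0.02), 0.25 in B/plasma-like (0.09), 0.47 in neutrophil-like (0.30) and 0.17 in compartment cells (0.65). The compartment compares hepatocyte-lineage-like vector cells with mostly unnamed KLF2 clusters, so cell type and KLF2 cannot be told apart there. Without its Malat1-rich and haemoglobin-rich clusters 7 genes were higher and 6 lower (8.33% and 7.14% of the ribosomal protein genes, against 12.4% and 10.7% of all genes). The compartment median was 0.06 with RLE factors and 0.07 with at most 10% mitochondrial UMIs. Taken as plain log2 ratios of 1 KLF2 library to vector replicate 2, it was 0.03 without either KLF2 replicate, while that of B/plasma-like cells was 0.41 without KLF2 replicate 2 and those of endothelial-like and neutrophil-like cells -0.14 and 0.76 without KLF2 replicate 1.

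Rps10 was the gene with the largest fall in 5 of the 6 classes with a call. In endothelial-like cells it was at 1457 CPM in vector replicate 2 and at 441 and 363 CPM in KLF2 replicates 1 and 2 (log2 difference -2.26, edgeR adjusted p = 2.13e-16). In mesenchymal-like cells it was at 1703, 466 and 451 CPM (-2.52, adjusted p = 1.07e-09), in myeloid-like cells at 2361, 604 and 499 CPM (-2.40, adjusted p = 0.00386), and in T/NK-like cells at 2561, 1138 and 792 CPM (-1.71, adjusted p = 9.90e-07). It was lower in both KLF2 libraries in all 7 classes, B/plasma-like cells included (2744, 1165 and 802 CPM, adjusted p = 0.181). In neutrophil-like cells Rps27rt (-1.68, adjusted p = 0.0447) and Rps10 (-1.68, adjusted p = 0.0367) fell by nearly the same amount.

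Rpl36 fell in endothelial-like cells (2289 CPM against 1212 and 1088, log2 difference -1.39, edgeR adjusted p = 2.39e-07), mesenchymal-like cells (-1.49, adjusted p = 0.00032) and the compartment (-1.40, adjusted p = 0.037). Rpl36al fell in myeloid-like cells (-1.32, adjusted p = 0.0207), endothelial-like cells (-1.11, adjusted p = 0.000749) and the compartment (-1.34, adjusted p = 0.0297). Rps19, the gene most often mutated in Diamond-Blackfan anaemia, fell in myeloid-like cells (3344 CPM against 1825 and 1587, -1.28, adjusted p = 0.0201). The rises were Rpl15 in T/NK-like cells (923 CPM against 2400 and 1827, 0.91, adjusted p = 0.0201) and, in neutrophil-like cells, Rpl15 (223 CPM against 1239 and 1372, 2.10, adjusted p = 0.0281) and Rpl6 (302 CPM against 1708 and 1611, 2.00, adjusted p = 0.0353). The mitochondrial share, the depth, the number of listed genes and the length relation above moved with the same contrast, and their part in these values was not tested.

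**Figure D5:**
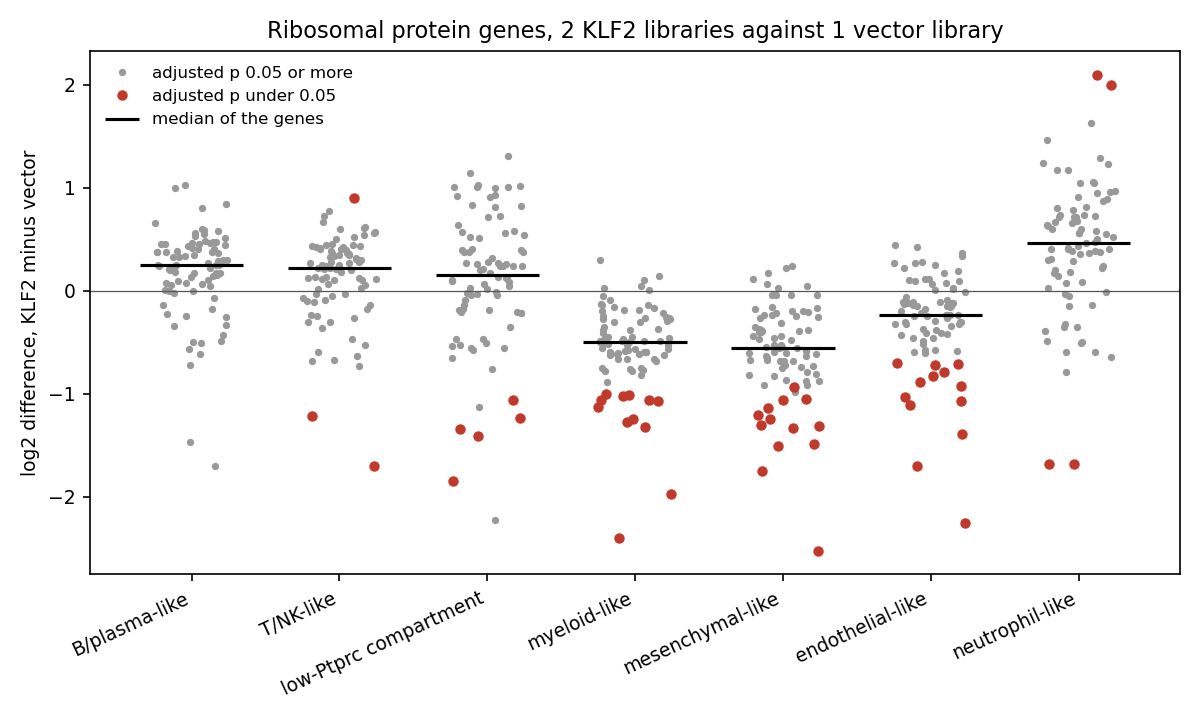
Log2 difference between the 2 KLF2 libraries and the 1 vector library (vertical axis) for each tested ribosomal protein gene with a UMI in the vector library, in 7 classes (horizontal axis); red points have an edgeR adjusted p under 0.05 and black lines are medians. Called genes lie mostly below 0, with Rps10 the lowest called point in the myeloid-like, mesenchymal-like and endothelial-like classes.

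Other genes of the ribosome pathway were read from lists, beside the shares of all genes given above (higher in the compartment 15.1%, higher in T/NK-like cells 13%, lower in neutrophil-like cells 3.62%). Ribosome biogenesis genes, which make and assemble the subunits, were high in the compartment, with 17 of 25 higher and 0 lower in the class test, against 1 higher in T/NK-like and 0 in B/plasma-like cells; the median log2 difference was 0.66, 0.09 and 0.12. Polr1c, a subunit of RNA polymerases I and III (0.85, edgeR adjusted p = 0.000773), and Dkc1, the pseudouridine synthase of the nucleolus (1.02, adjusted p = 0.00159), were among them. Mitochondrial ribosomal protein genes were called higher there too, with 39 of 78 higher in the compartment (median 0.60) and 4 in T/NK-like cells (median 0.05). Of the other ribosome and TOP genes, 10 of 22 tested were lower in neutrophil-like cells, 5 higher in T/NK-like and 9 higher in compartment cells, and Fau, which encodes Rps30, was higher in B/plasma-like (0.94, adjusted p = 0.000137) and lower in mesenchymal-like cells (-0.86, adjusted p = 0.000444). Of 20 translation control genes, 4 were higher in the compartment, near the share of all genes, and Eif4ebp1, the mTORC1 target that holds back cap-dependent translation, was lower in T/NK-like cells (-2.07, adjusted p = 0.00222).

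Against vector, 9 of 25 ribosome biogenesis genes were lower in endothelial-like KLF2 cells and 0 higher (median -0.68), among them Ubtf (-1.22, edgeR adjusted p = 0.000312) and Nop58 (-1.20, adjusted p = 0.000459). In the compartment 1 was higher and 2 lower, and 13 of 78 mitochondrial ribosomal protein genes were lower, where 14.1% of all genes were lower in endothelial-like cells and 11% in the compartment. Tpt1, a TOP mRNA, was higher in endothelial-like (0.96, adjusted p = 0.00077) and T/NK-like KLF2 cells (1.09, adjusted p = 0.0069).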

How the data were processed

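Single-cell libraries were made from dissociated tumours with a droplet kit, per the labels' protocols. The authors deposited whole-number UMI counts for every gene and barcode; per the file headers the matrices were written by PISA v1.0, and per the submitters' processing notes the build was GRCm38. The aligner, annotation and cell calling: not given in the sources used here. Barcodes stayed in if they had 300 genes or more and no more than 25% mitochondrial UMIs. Scrublet called 0 doublets in each library, so it had not worked, and an alternative removed the 5% highest scores. Clustering left out the ribosomal protein, mitochondrial and rRNA-related genes among variable genes (scanpy 1.11.5, 2000 genes, 30 components, 15 neighbours, leidenalg 0.10.2 at resolution 1). Names needed a mean log2 marker change of 1 (prior 20 CPM), a lead of 0.5, 3 markers in 25% of cells and 1 marker among the 10 leading genes; the last condition was added after seeing the data. The compartment bound was 100 CPM of Ptprc.

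UMIs were summed per class and library and tested with edgeR 4.0.16 (TMM, filterByExpr, quasi-likelihood); DESeq2 1.42.0 was an alternative. The scripts were tested on simulated data. Named genes are the paralogue pairs, up to 3 per direction and class in the class test and up to 4 in the KLF2 test among those past an adjusted p of 0.05 with a mean of at least 30 CPM, the 5 most and 5 least variable in proportion, and up to 4 per list by adjusted p; single genes outside this rule were chosen after their values were seen. The genes and lists were chosen with earlier results of these data known. The edgeR p-values between classes measure the spread of the sums of 3 mice that the class and library terms leave over. Several sums come from the same mouse. Those of KLF2 against vector rest on the spread between the 2 KLF2 mice. In both tests edgeR draws the spread of each gene toward that of all genes, so it is not that gene's alone. The exact test ranks a difference among arrangements of class labels and measures no spread between mice.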

Additional observations from a re-analysis of the deposited data

Results flagged for a closer look

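In 6 values both KLF2 libraries lay on one side of vector replicate 2 in one class and on the other side in another class; the difference between the classes was not tested. The share of all UMIs from ribosomal protein genes was 10.4 percentage points above vector in the low-Ptprc compartment (mean of the KLF2 libraries) and -2.80 points in myeloid-like cells, with 5 classes above and 1 below. Without mitochondrial and rRNA-related genes the compartment shares were 26.6% in vector replicate 2 and 29.6% and 29.4% in the KLF2 libraries. Endothelial-like cells were then below vector in both KLF2 libraries (20.1% against 17.2% and 19.0%). So were mesenchymal-like cells (22.3% against 17.7% and 18.0%) and still myeloid-like cells. The B/plasma-like, T/NK-like and neutrophil-like classes stayed above. The Rps27l share of its pair was 7.58 points above vector in neutrophil-like cells, where the vector value rests on 13 Rps27l UMIs, and -11.1 points in the compartment, with 4 classes above and 1 below. The Rpl7l1 share was 1.16 points above vector in neutrophil-like cells, on 2 Rpl7l1 UMIs in the vector library, and -5.24 points in the compartment, with 1 class above and 5 below. The compartment holds mostly hepatocyte-lineage-like cells in vector replicate 2 and mostly unnamed clusters in the KLF2 libraries.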

How the results depend on the processing

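Counts are ribosomal protein genes past an adjusted p of 0.05. The number of all genes called changed with these settings as well, and in B/plasma-like cells the reported KLF2 fit called no gene at all. A count here can therefore not be read alone as a change of the ribosomal protein genes. It also joins higher and lower genes, whose balance moved with the setting for KLF2 against vector. In the reported KLF2 fit, all ribosomal protein genes called in the compartment were lower. Higher ones outnumbered lower ones there by DESeq2 and without the Malat1-rich and haemoglobin-rich clusters. Neutrophil-like cells had only higher ones without a filter on low counts. For KLF2 against vector, T/NK-like cells had 5 with at most 10% mitochondrial UMIs, at Leiden resolution 0.5 and without a filter on low counts, and 10 without mitochondrial and rRNA-related genes (3 reported). B/plasma-like cells (0 reported) had 2 with at most 10% mitochondrial UMIs, with at least 500 genes, with clusters made with the ribosomal protein genes, at resolution 0.5 and with RLE factors, 1 without the highest doublet scores, without a filter and by DESeq2, and 3 without mitochondrial and rRNA-related genes. Neutrophil-like cells (4) had 0 without the highest doublet scores and by DESeq2, and 2 without a filter. Mesenchymal-like cells (13) had 21 with at most 10% mitochondrial UMIs and without mitochondrial and rRNA-related genes, 8 without the highest doublet scores and 7 by DESeq2. The compartment (5) had 9 without a filter, 16 by DESeq2 and 13 without Malat1-rich and haemoglobin-rich clusters, an alternative chosen after seeing the data.

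For a class against the others, B/plasma-like cells (49) had 30 without a filter. Myeloid-like cells (4) had 1 at resolution 0.5 and 2 with at most 10% mitochondrial UMIs, with at least 500 genes, with clusters made with the genes, with RLE factors, with scaling without the genes, without mitochondrial and rRNA-related genes and without the Malat1-rich and haemoglobin-rich clusters. Endothelial-like cells (45) had 77 with at most 10% mitochondrial UMIs and with at least 500 genes, 28 at resolution 0.5, 21 without a filter and 71 by DESeq2. Mesenchymal-like cells (14) had 66 with at most 10% mitochondrial UMIs, 63 with at least 500 genes and 5 at resolution 0.5. They had 8 with RLE factors and without the Malat1-rich and haemoglobin-rich clusters, 6 without a filter and 26 by DESeq2. All genes lower in this class numbered 884 of 12225 in the reported fit. They numbered 917 of 12521 with at most 10% mitochondrial UMIs and 833 of 12208 at resolution 0.5. The compartment (12) had 19 with at least 500 genes, 25 without the highest doublet scores, 24 with RLE factors, 39 by DESeq2 and 35 without the Malat1-rich and haemoglobin-rich clusters. Leaving out 1 library gave 5 to 78 in T/NK-like, 2 to 76 in B/plasma-like, 0 to 2 in myeloid-like, 1 to 65 in neutrophil-like, 0 to 79 in endothelial-like, 0 to 75 in mesenchymal-like and 2 to 40 in compartment cells.

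The difference in share from the other classes was -7.31 points with at most 10% mitochondrial UMIs and -6.77 with at least 500 genes in endothelial-like cells, both past the threshold of the exact test, where neutrophil-like cells had under 50 cells in a library and no value. In neutrophil-like cells it was -7.40 with clusters made with the genes and -7.73 at resolution 0.5, not past it. With 1 library left out it was -8.83 to -7.12. Too few arrangements exist there for a single class to pass the adjustment, so the test cannot decide. In myeloid-like cells it was -3.53 to 0.783 with 1 library left out, above 0 without KLF2 replicate 1. Over all cells the KLF2 minus vector share was 5.72 points with at most 10% mitochondrial UMIs and 3.26 without mitochondrial and rRNA-related genes. Without the highest doublet scores the Rpl22l1 share was 15.9% in B/plasma-like cells and the Rps27l share 1.67% there and 3.06% in T/NK-like cells, where it was 3.71% with at most 10% mitochondrial UMIs. The cause was not tested. No paired analysis was possible because the groups share only 1 replicate number among the libraries with counts. Neutrophil-like values rest on few UMIs, with 327 for the Rps27 pair in vector replicate 2.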
